A study of Homo sapiens with 4 samples.

Results

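IL6 and 9 other genes for secreted inflammatory cytokines and chemokines were described in PC3, an established human prostate cancer cell line, with and without knockdown of METTL3. The 10 genes are IL6, LIF and IL11 of the IL-6 family, IL1A and IL1B of the IL-1 family, and the chemokine genes CXCL1, CXCL2, CXCL3, CXCL5 and CXCL8. They were taken by name from a table of 60544 genes, and all 10 were found once and passed the low-count filter. IL6 was chosen by its lower level (log2 fold change) in sh812 in these same libraries, so its change is described here without a test. The other 9 were added for their function, with results of the same contrast already known, so nothing was read from how many of them changed.

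The control group, labelled shNC, and the knockdown group, labelled sh812, had 2 PC3 libraries each, grown under the same conditions. METTL3 knockdown is named in the series design, and sh812 was taken as that arm because it is the only other label. Each arm rests on 1 hairpin label in 1 cell line, and it is not stated whether the cells were a pool or a clone, when they were collected, or whether replicates were separate cultures. P-values therefore measure the spread between these libraries, which may be technical. METTL3 is the catalytic subunit of the enzyme that places N6-methyladenosine (m6A) on messenger RNA.

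These cytokines are made by immune, stromal and tumor cells. IL-6, LIF and IL-11 bind receptors that share the signal-transducing chain gp130, encoded by IL6ST. CXCL1, CXCL2, CXCL3, CXCL5 and CXCL8 act on the receptor CXCR2 and attract neutrophils, and IL-1α and IL-1β activate NF-κB in the cells that receive them. Transcription of many of these genes is driven by NF-κB, and their mRNAs are typically short-lived through AU-rich elements in the 3′ untranslated region.

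The promoter sequences are given as a description, and their part in the changes was not tested. Promoter sequence was available from RefSeq (GRCh38.p14) for 9 of the 10 genes, all but LIF, over 300 bases from 250 before to 50 after the start site. The core GGANNNTCC, which reads the same on both strands, was present in 6 of them, namely IL6, CXCL1, CXCL2, CXCL3, CXCL5 and CXCL8, against 9.32% of 35116 promoters in the table. In these genes the match lay 72 (IL6), 78 (CXCL1), 77 (CXCL2), 78 (CXCL3), 90 (CXCL5) and 91 (CXCL8) bases before the start. CXCL5 had another match 10 bases after it. The AP-1 core TGANTCA, also the same on both strands, was present in CXCL8, IL1A and IL11, against 7.71% of promoters. Below, the 250 bases before the start are given for IL6 and CXCL5, and 40 bases around the match for the other genes, with the NF-κB core in capitals.
IL6 promoter, chr7:22726950-22727199, plus strand: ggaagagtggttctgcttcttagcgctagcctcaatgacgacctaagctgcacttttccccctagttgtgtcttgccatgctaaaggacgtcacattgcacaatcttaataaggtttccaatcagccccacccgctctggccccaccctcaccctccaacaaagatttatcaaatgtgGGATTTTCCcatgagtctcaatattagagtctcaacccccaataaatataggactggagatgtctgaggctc
CXCL5 promoter, chr4:73998678-73998927, minus strand: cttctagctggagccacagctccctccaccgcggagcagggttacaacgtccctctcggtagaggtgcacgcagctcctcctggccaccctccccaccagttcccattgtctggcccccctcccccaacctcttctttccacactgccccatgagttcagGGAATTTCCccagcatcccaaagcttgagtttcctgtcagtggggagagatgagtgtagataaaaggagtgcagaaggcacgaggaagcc
CXCL8, chr4:73740463-73740502, plus strand: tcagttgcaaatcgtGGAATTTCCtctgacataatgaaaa
CXCL1, chr4:73869300-73869339, plus strand: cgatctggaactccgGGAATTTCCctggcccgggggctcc
CXCL2, chr4:74099248-74099287, minus strand: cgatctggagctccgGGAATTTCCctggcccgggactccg
CXCL3, chr4:74038743-74038782, minus strand: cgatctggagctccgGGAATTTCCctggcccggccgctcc
The windows of CXCL1, CXCL2 and CXCL3 were close copies of each other beyond the core. A match is a description of letters and shows no binding.

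AU-rich sequence was common to all 10 transcripts. In the GENCODE 29 transcript with the longest coding part, ATTTA occurred after the stop codon in 10 of 10 genes, at 2.18 (LIF) to 13.99 (IL6) per kb, all above the median of 1.58 per kb over 13046 tested coding genes. The longer form TTATTTATT was found in 7 of the 10, against 8.22% of those genes, and IL6, CXCL5 and IL1A lacked it. The 30 bases richest in ATTTA, in capitals, are shown for genes that were lower in sh812 (IL6, LIF, CXCL2, IL1B) and for the genes that were higher (CXCL5, IL11), since both kinds carried it.
IL6: tatttttaATTTAttaatATTTAaatatgt
LIF: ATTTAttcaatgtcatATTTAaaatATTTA
CXCL2: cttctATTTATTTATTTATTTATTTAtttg
IL1B: cgcttccctATTTATTTATTTAtttgtttg
CXCL5: tgaatataaATTTAtcATTTAgttataaaa
IL11: ccagatcttATTTATTTATTTAtttcagta
The sequence GGACT, one form of the motif in which m6A is placed, was counted on the transcript strand of the whole transcript. It occurred 11 times in LIF, 4 times in IL1B, 4 times in IL11, and once each in IL6, CXCL2 and CXCL3. It was absent from CXCL1, CXCL5, CXCL8 and IL1A. LIF had 2.77 per kb, IL1B 2.45, IL11 1.75, CXCL3 0.93, CXCL2 0.82 and IL6 0.65, against a median of 0.94 over the tested coding genes, 91.3% of which held at least 1. No m6A was measured in these libraries.

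Libraries held 31450648 to 37041330 gene counts. METTL3 had 1682 and 1379 counts in shNC and 269 and 313 in sh812. This left 18.7% of the control level in CPM (counts scaled to the library total with TMM factors) and goes with the labels. TOX4 overlaps METTL3 on the opposite strand and had 3297 to 3831 counts in a library. Whether counting used strand is not given, so the size of the METTL3 change is uncertain to that extent. Of 16802 genes tested, 912 were higher and 910 lower in sh812 at an adjusted p under 0.05 (edgeR's quasi-likelihood test, Benjamini-Hochberg adjustment). With library size alone as the scaling, the split was 561 higher and 1328 lower. The fitted log2 fold changes of all genes had a Spearman correlation of -0.23 with transcript length, given as a description of these libraries. The epithelial genes KRT8, KRT18, KRT19, EPCAM and CDH1 were all present, and KRT18, EPCAM and CDH1 were called higher. TMPRSS2 was called lower and KLK3 had 0 counts. Leukocytes also make these cytokines. Their 10 markers summed to 8.82 to 9.07 CPM in shNC and 8.46 to 9.39 CPM in sh812, 0 of the 4 tested were called in edgeR (0 at an unadjusted p under 0.05, 0 in DESeq2 and 0 in limma-voom), CD3E was at 0 and PTPRC had 12 to 32 counts. S100A9 alone gave 6.27 to 7.54 CPM of that sum, so the sum says little of the other markers, and S100A8 had 20 and 6 counts in shNC and 2 and 0 in sh812. The 8 fibroblast markers summed to 55.7 to 58.7 CPM in shNC and 50.1 to 56.8 CPM in sh812, with COL1A2 called higher and COL3A1 lower. The 5 endothelial markers summed to 42.0 to 43.4 and 44.4 to 51.1 CPM, with PECAM1 called higher and KDR lower, and their defining members CDH5 and VWF had 0 to 6 counts. The part of fibroblast and endothelial genes in the results was not tested.

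In the IL-6 family, IL6 and LIF were lower in sh812 and IL11 was higher. IL6 (ENSG00000136244, chromosome 7, 22725884 to 22732002 on the plus strand in GENCODE 29) is the founding ligand of the family. Its counts were 1926 and 1607 in shNC and 765 and 643 in sh812, or 50.8 and 50.8 CPM against 21.8 and 18.0 CPM. Both sh812 libraries lay far below both shNC libraries. Expressed as group means, IL6 went from 50.8 to 19.9 CPM, which is 39.1% of the control level, with a fitted log2 fold change of -1.35 (SE 0.10). The fold change was -1.50 without sh812 replicate 1 and -1.22 without replicate 2 of that group, and the sh812 libraries differed more from each other than the controls did. In bulk RNA, fewer cells making a transcript and less RNA per cell cannot be told apart.

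An antisense gene, IL6-AS1, overlaps IL6 and had 16 and 18 counts in shNC and 7 and 3 in sh812, and STEAP1B on the opposite strand had 9 to 28 counts in a library. Both were far below the counts of IL6. Whether counting used strand is not given in the sources used here, so reads of such overlapping genes cannot be told apart.

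LIF (chromosome 22, 30240447 to 30246851, minus strand), a cytokine that keeps stem cells undifferentiated and acts through LIFR and gp130, fell in sh812. It had 8139 and 6198 counts in shNC and 4411 and 4721 in sh812, or 215 and 196 CPM against 126 and 132 CPM. The groups did not overlap. Its log2 fold change was -0.67 (SE 0.06, adjusted p = 8.13e-08 in edgeR), leaving 62.7% of the control level, and ran from -0.73 to -0.61 when any 1 library was left out. LIF stayed under the threshold in each of its 15 alternatives. Antisense genes overlap it too, with at most 32 counts in a library.

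IL11 (chromosome 19, 55364389 to 55370463, minus strand), a cytokine known for its part in bone remodelling and fibrosis, went the other way. It had 392 and 430 counts in shNC and 530 and 591 in sh812, or 10.3 and 13.6 CPM against 15.1 and 16.5 CPM. The sh812 values were the higher ones, but the shNC libraries stood apart by more than the distance from the upper shNC to the lower sh812 library. The log2 fold change was 0.41 (SE 0.13, adjusted p = 0.0485 in edgeR). This call did not hold with DESeq2 (adjusted p = 0.157), with library size alone (0.0846) or with the length trend removed (0.0529), and over all alternatives the adjusted p ran from 0.000284 to 0.380. The fold change was 0.22 without shNC replicate 1, 0.47 without sh812 replicate 1 and 0.34 without sh812 replicate 2, none of them past the threshold, and 0.62 without shNC replicate 2.

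The levels of LIF and IL11 relative to IL6 are given as a description, since IL6 was chosen for its fall and a higher ratio in sh812 follows from that choice. Per kb of transcript, the LIF level was 1.63 and 1.48 times that of IL6 in the shNC libraries and 2.22 and 2.82 times in the sh812 libraries. The IL11 level was 0.136 and 0.179 times that of IL6 in shNC and 0.464 and 0.615 times in sh812.

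**Figure D1:**
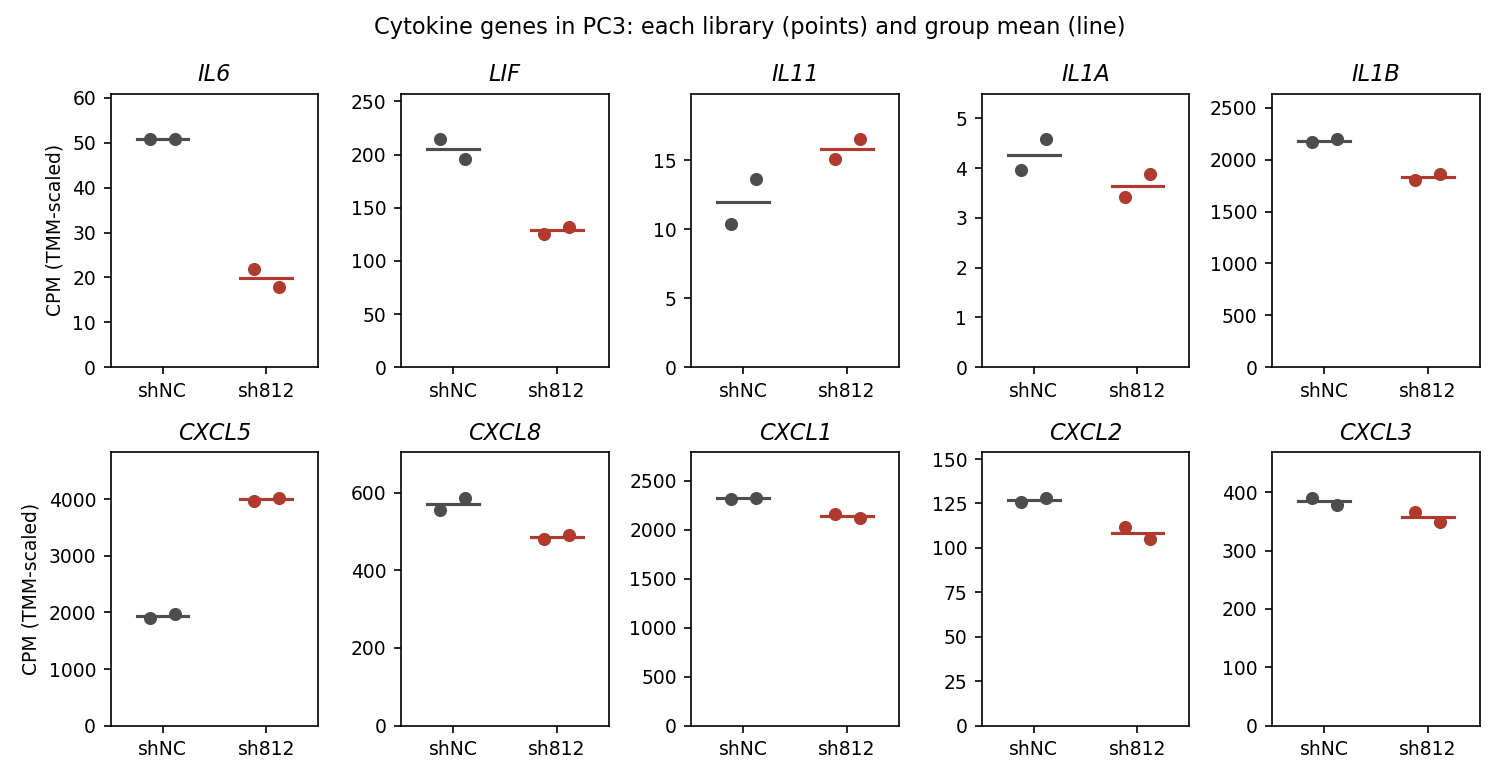
TMM-scaled CPM (y axis, linear from 0) of the 10 cytokine genes in the shNC and sh812 libraries, 1 point per library with a line at the group mean. IL6 and LIF were lower and CXCL5 higher in sh812 by much more than the distance between replicates, while CXCL1 and CXCL3 were displaced little.

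Both IL-1 genes lie in the interleukin-1 cluster of chromosome 2 and differed greatly in level. IL1B (112829751 to 112836903, minus strand) encodes IL-1β, the form that is secreted after cleavage. It had 82246 and 69542 counts in shNC and 63415 and 66571 in sh812, or 2168 and 2199 CPM against 1807 and 1860.2 CPM. It fell modestly, to 84.0% of the control level, with groups that did not overlap (log2 fold change -0.25, SE 0.05, adjusted p = 0.00302 in edgeR). The call was lost when sh812 replicate 1 (log2 fold change -0.23) or sh812 replicate 2 (-0.27) was left out, each with a larger SE of 0.09. Over the alternatives that kept each library, the adjusted p ran from 3.12e-07 to 0.00569.

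IL1A (112773915 to 112784590, minus strand) encodes IL-1α, which is active as the full-length precursor. With 150 and 145 counts in shNC and 120 and 139 in sh812, it had the lowest level of the 10 genes, 3.95 and 4.59 CPM against 3.42 and 3.88 CPM. The groups were close to each other and the difference, -0.22 on the log2 scale (SE 0.21, adjusted p = 0.561 in edgeR), did not pass the threshold. The size of its SE leaves a change as large as that of IL1B undecided at this depth.

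IL37, a member of the same family that is known to dampen inflammation, lies 139 kb from the start of IL1A in the same cluster. It rose from 386 and 394 counts to 841 and 974 (log2 fold change 1.18, SE 0.12, adjusted p = 2.44e-07 in edgeR), while IL1B, between them, fell. IL1RN, the IL-1 receptor antagonist gene farther along, had 1, 24, 11 and 9 counts in shNC 1, shNC 2, sh812 1 and sh812 2, and did not pass the test (adjusted p = 0.821 in edgeR). IL1RN was named after its values were seen.

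Among the CXC chemokines, CXCL5 rose and CXCL8 and CXCL2 fell slightly, while CXCL1 and CXCL3 did not pass the threshold. CXCL5 (chromosome 4, 73995642 to 73998779, minus strand), a neutrophil attractant also made by epithelial cells, had 72503 and 62500 counts in shNC and 139624 and 144234 in sh812. In CPM these were 1912 and 1976 against 3978 and 4030.4. The replicates of each group lay within a few percent of each other and the groups were far apart. CXCL5 rose 2.06-fold, from 1944 ± 45.8 to 4004 ± 37.4 CPM (SD, n = 2; log2 fold change 1.04, SE 0.05, adjusted p = 9.36e-13 in edgeR). Its log2 fold change ran from 1.00 with library size alone to 1.07 without shNC replicate 2, and it passed the threshold in each of its 15 alternatives.

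CXCL8 (73740506 to 73743716, plus strand), which encodes interleukin-8, had 21034 and 18565 counts in shNC and 16827 and 17529 in sh812, or 555 and 587 CPM against 479 and 489.8 CPM. It fell to 84.9% of the control level (log2 fold change -0.24, SE 0.06, adjusted p = 0.00823 in edgeR). CXCL2 (74097035 to 74099293, minus strand), a further CXCR2 ligand, had 4775 and 4057 counts against 3928 and 3764, or 126 and 128 CPM against 112 and 105 CPM. It fell to 85.4% (log2 fold change -0.23, SE 0.06, adjusted p = 0.0220 in edgeR). In neither gene did the groups overlap. Leaving out sh812 replicate 1 ended both calls, with log2 fold changes of -0.22 for CXCL8 and -0.27 for CXCL2. Leaving out sh812 replicate 2 did so too, at -0.25 and -0.18. In each of these fits the SE was larger, 0.09 for CXCL8 and 0.10 for CXCL2.

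CXCL1 (73869393 to 73871242, plus strand), first known as a melanoma growth factor, had 2315 and 2327 CPM in shNC and 2155 and 2116 CPM in sh812, from 73601 to 87818 counts a library. Its log2 fold change was -0.12 (SE 0.05, adjusted p = 0.153 in edgeR). CXCL3 (74036589 to 74038807, minus strand), another CXCR2 ligand, had 391 and 378 CPM against 367 and 349.5 CPM, a log2 difference of -0.10 (SE 0.06, adjusted p = 0.287 in edgeR). The sh812 values were below the shNC values in both. With each library's trend on transcript length removed, CXCL1 was called lower at -0.21 (adjusted p = 0.00646) and CXCL3 at -0.19 (0.0245). CXCL1 was also called with library size alone (-0.16, adjusted p = 0.0220), without shNC replicate 1 (-0.12, 0.00633) and without shNC replicate 2 (-0.11, 0.0115), and its adjusted p over all alternatives ran from 0.00441 to 0.612. For CXCL3 it ran from 0.0177 to 0.788.

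CXCL1, CXCL2 and CXCL3 are recent copies of each other, and their coding sequences were 90.7% to 94.4% identical in GENCODE 29. Of the 75-base windows of the CXCL3 transcript, 2.30% occurred whole in CXCL2 and 0% in CXCL1, and 0.293% of those of CXCL1 occurred in CXCL2. How reads that fit several genes were counted is not given in the sources used here, so the separation of these 3 genes is uncertain to that extent. CXCL5 shared 0% of such windows with CXCL1, CXCL2, CXCL3, CXCL8 and CXCL6, the last of which had a coding sequence 87.4% identical to it.

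Of the 9 genes other than IL6, 2 were thus called higher (CXCL5, IL11) and 4 lower (LIF, IL1B, CXCL8, CXCL2), and 3 did not pass. Over all 16802 genes tested, 5.43% were called higher and 5.42% lower. The groups did not overlap in CPM for any of the 9, with 7 lower and 2 higher, an arrangement that 27.4% and 26.2% of all genes showed (53.6% together). Without either sh812 library only CXCL5 and LIF were called. The median log2 fold change of the 9 was -0.22, against -0.0056 over all genes.

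**Figure D2:**
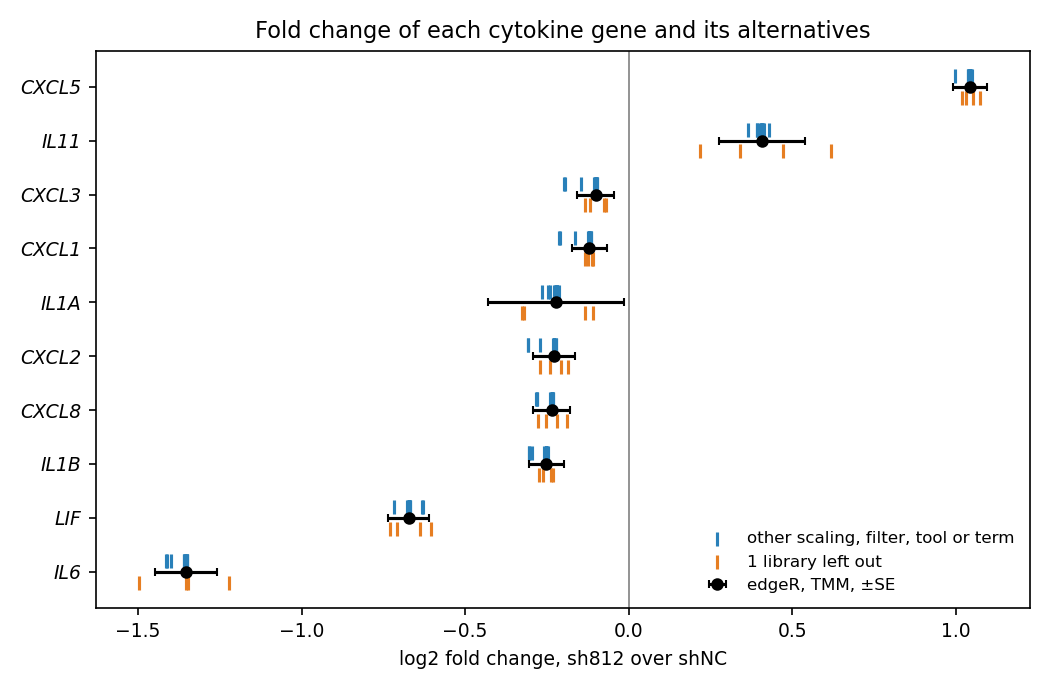
Fitted log2 fold change of sh812 over shNC (x axis) for the 10 genes, with black points and bars for edgeR with TMM ± SE, blue ticks for other scalings, filters, tools or terms, and orange ticks for fits without 1 library. CXCL5 near 1.04 and LIF near -0.67 stayed apart from 0 in each fit, and IL11 ranged from 0.22 to 0.62. IL6, near -1.35, was chosen for its fall, so its place is a description.

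The chemokine genes lie together on chromosome 4, so neighbours could be compared. From the start of CXCL8 to the end of CXCL2 the cluster spans 359 kb and holds CXCL8, CXCL6, PF4V1, CXCL1, PF4, PPBP, CXCL5, CXCL3 and CXCL2, in this order. CXCL3 begins 37.8 kb after CXCL5 ends and had a log2 fold change of -0.10 against 1.04. PPBP and PF4, which encode platelet chemokines and lie on the other side of CXCL5, PPBP 7.45 kb away, had 26 to 40 and 68 to 108 counts in a library. Their log2 fold changes were -0.15 (SE 0.46, adjusted p = 0.886 in edgeR) and 0.46 (SE 0.26, adjusted p = 0.275). CXCL6, the gene most like CXCL5 in sequence, had 19822 to 22988 counts and a log2 difference of -0.17 (SE 0.06, adjusted p = 0.0684 in edgeR). CXCL5 was the only gene called higher among the 8 of the cluster that were tested. Differences between neighbours were not tested.

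**Figure D3:**
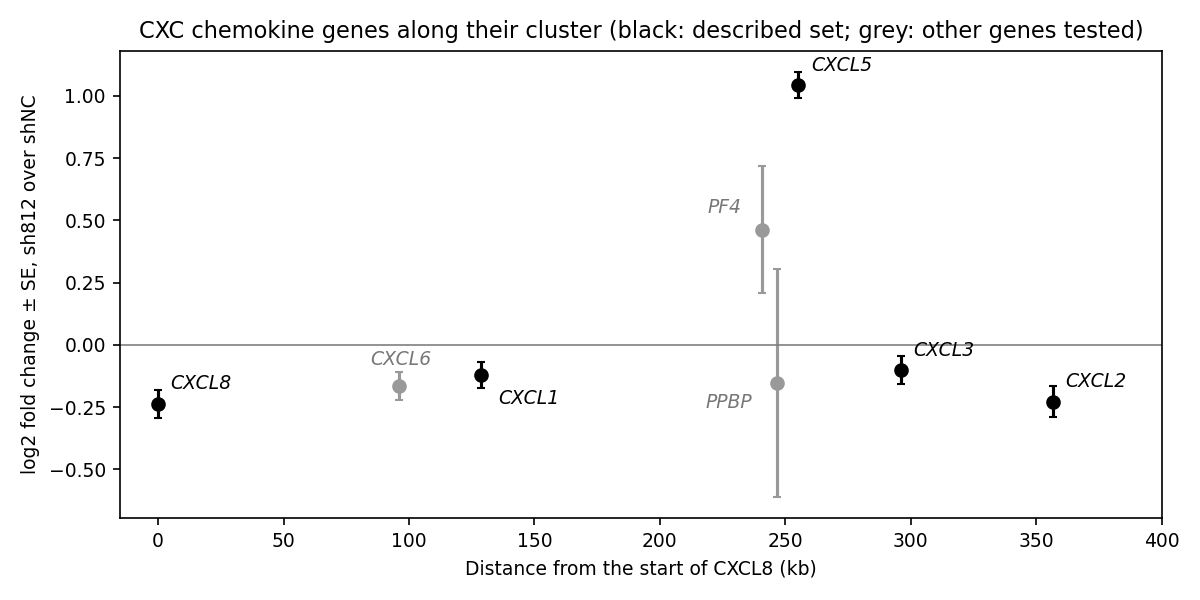
Log2 fold change ± SE of sh812 over shNC (y axis) of the tested genes of the chromosome 4 chemokine cluster against distance in kb from the start of CXCL8 (x axis). CXCL5 stands at 1.04, while CXCL8, CXCL6, CXCL1, CXCL3 and CXCL2 lie between -0.24 and -0.10.

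Within a library, the relation of CXCL5 to CXCL1 does not depend on scaling. The CPM of CXCL5 was 0.826 and 0.849 times that of CXCL1 in shNC and 1.85 and 1.90 times in sh812. Counted per kb of transcript, CXCL5 made up 18.8% and 19.1% of the summed level of CXCL1, CXCL2, CXCL3, CXCL5, CXCL6 and CXCL8 in shNC, and 34.3% and 34.9% in sh812. With the union of exons as length, the shares were 22.7% and 23.0%, then 39.8% and 40.5%. The sum over the 6 genes went from 4008 and 4087 CPM per kb in shNC to 4575 and 4546 in sh812. Of the 6, CXCL5 was called higher and CXCL8 and CXCL2 lower, and CXCL1, CXCL3 and CXCL6 did not pass. With 2 libraries a group, no exact permutation test of such a ratio can give a two-sided p below 0.333.

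**Figure D4:**
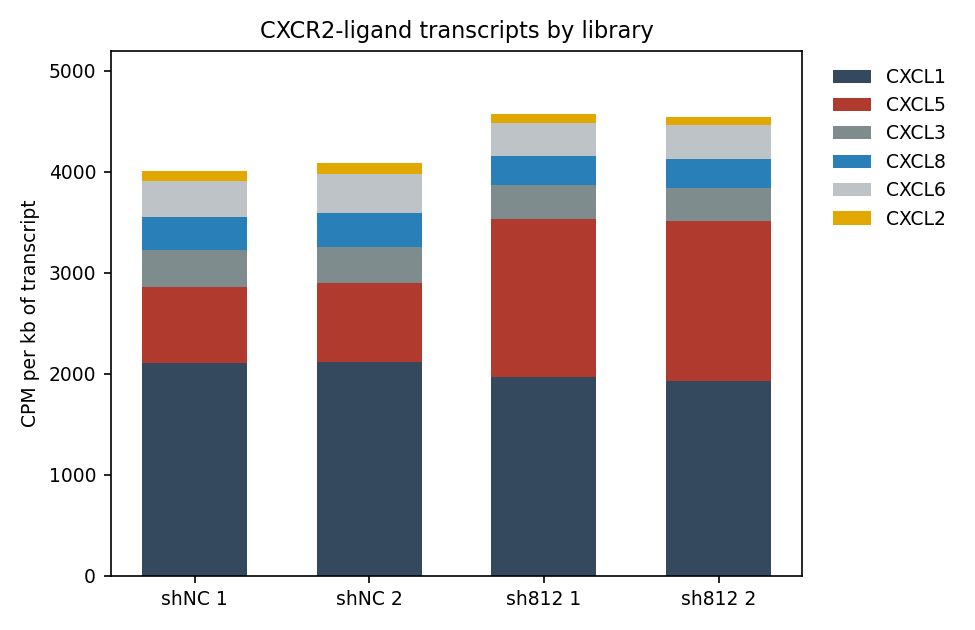
Stacked level of 6 CXCR2-ligand transcripts (y axis, CPM per kb of transcript) in each library. The CXCL5 segment grows from 753 and 779 in shNC to 1567 and 1588 in sh812 and the other segments change little.

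Per kb of transcript, the levels in shNC differed widely between the genes. CXCL1 stood highest at 2116 ± 7.76 CPM per kb, followed by IL1B at 1339 ± 13.3, CXCL5 at 766 ± 18.1 and CXCL3 at 357 ± 8.49 (SD, n = 2). Next came CXCL8 at 335 ± 13.5, CXCL2 at 104 ± 1.39 and LIF at 51.7 ± 3.31 (SD, n = 2). IL6 stood at 33.3 ± 0.0170, IL11 at 5.25 ± 1.01 and IL1A at 2.01 ± 0.210 (SD, n = 2). No neighbours in this order overlapped between their replicates. In sh812 the order differed only in that CXCL5, at 1578 ± 14.7 CPM per kb, passed IL1B, at 1124 ± 23.3 (SD, n = 2). With the union of exons as length, CXCL5 stood above IL1B in shNC as well, and CXCL8 above CXCL3 in both groups.

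Around these genes, 8 lists of related genes were examined, 131 genes in all, of which 104 were tested, 7 called higher and 9 lower. Over all 16802 genes tested, 5.43% were called higher and 5.42% lower, 10.8% together, with a median log2 fold change of -0.0056, and the counts of each list below stand beside these shares with no test of the difference. Without 1 library, 4 (without sh812 replicate 2), 6 (without sh812 replicate 1), 17 (without shNC replicate 1) or 27 (without shNC replicate 2) were called. In the list of receptors, 2 of 9 tested genes were called, both lower, against 5.42% of all genes called lower, with a median log2 fold change of -0.29. IL6ST, the shared gp130 chain, fell from 239 and 223 to 171 and 181 CPM (log2 fold change -0.39, SE 0.06, adjusted p = 0.000136 in edgeR). IL1RAP, the accessory chain of the IL-1 receptor, fell from 19.6 and 17.9 to 11.7 and 11.1 CPM (-0.72, SE 0.12, adjusted p = 0.000223 in edgeR). CXCR1, CXCR2 and ACKR1 had 0 counts in each library. The alpha chain gene IL6R differed by -0.19 on the log2 scale (SE 0.09, adjusted p = 0.188 in edgeR), and LIFR by 0.08 (SE 0.08, adjusted p = 0.575). STAT3, the main transcription factor downstream of gp130, had only 22 to 48 counts in a library, and its difference of -0.81 on the log2 scale (SE 0.45, adjusted p = 0.276 in edgeR) did not pass. IL6R, LIFR and STAT3 were named after their values were seen.

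Other secreted ligands were called in both directions. In the IL-6 family and colony-stimulating list, 1 of 7 tested genes was called, lower (median -0.14). CSF3, the granulocyte colony-stimulating factor gene, fell from 142 and 139.5 to 109 and 117 CPM (-0.31, SE 0.06, adjusted p = 0.00211 in edgeR). Of 12 other chemokine genes tested, 1 was higher and 2 lower (median -0.37). CCL20, a ligand of CCR6, rose from 25.3 and 26.3 to 34.1 and 37.3 CPM (0.47, SE 0.09, adjusted p = 0.00155 in edgeR). CCL2, a monocyte attractant, had 20 and 18 counts in shNC and 2 and 0 in sh812 (adjusted p = 0.00872 in edgeR), a ratio of 19.4 with an exact 95% interval of 3.08 to 805 from halved counts pooled over each group, which covers counting error only and not the spread between libraries. The call was lost without sh812 replicate 2 (adjusted p = 0.178). CXCL11, an interferon-induced chemokine, had 40 and 24 counts against 6 and 10 (adjusted p = 0.0348 in edgeR). Among 13 genes of the other IL-1 family and interleukin list, IL37 and LTB were higher and IL23A lower (median 0.10). LTB, which encodes lymphotoxin β, went from 58 and 49 to 110 and 104 counts (0.97, SE 0.28, adjusted p = 0.0242 in edgeR). IL23A, the p19 subunit of interleukin-23, went from 867 and 656 counts to 562 and 580 (-0.44, SE 0.11, adjusted p = 0.00973 in edgeR). TNF had 0 counts in each library.

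Lists of genes that act on cytokine transcription were examined next. In the NF-κB list, 1 of 23 tested genes was higher and 2 lower, against 10.8% of all genes called either way, with a median of -0.033. NFKBIA, the inhibitor IκBα, rose slightly (0.20, SE 0.06, adjusted p = 0.0334 in edgeR). NFKBIZ, a nuclear cofactor of NF-κB at the IL6 promoter, and BIRC2, a ubiquitin ligase of the pathway, fell slightly (-0.24 and -0.19, SE 0.06 and 0.06, adjusted p = 0.0152 and 0.0409 in edgeR). RELA, the main activating subunit, differed by 0.03 on the log2 scale (SE 0.06, adjusted p = 0.849 in edgeR) and was named after its value was seen. Of 15 tested genes for other promoter factors such as AP-1 and C/EBP subunits, 0 were called in edgeR (median -0.059), with 2 at an unadjusted p under 0.05, CEBPD and HIF1A, and 0 called in DESeq2 and 0 in limma-voom.

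In the list of cytokine mRNA decay and stability, 2 of 16 tested genes were higher and 1 lower, against 10.8% of all genes called either way (median -0.068). HNRNPD, which encodes the AU-rich element binding protein AUF1, and RC3H1, which encodes the decay factor roquin, rose (0.20 and 0.35, SE 0.06 and 0.11, adjusted p = 0.0252 and 0.0469 in edgeR). TIA1, a translational repressor that binds AU-rich mRNA, fell (-0.23, SE 0.07, adjusted p = 0.0310 in edgeR). Of 9 tested genes for IL-1 processing and secretion, GSDMD, the pore through which IL-1β leaves the cell, was the one called, higher (0.22, SE 0.07, adjusted p = 0.0285 in edgeR; list median 0.018). CASP1, the protease that cleaves the IL-1β precursor, had 13 to 33 counts in a library (adjusted p = 0.817 in edgeR) and was named after its values were seen. Of the 16 called genes of the 8 lists, IL37, IL6ST and IL1RAP passed in each alternative, and the other 13 lost the call in at least 1.

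**Figure D5:**
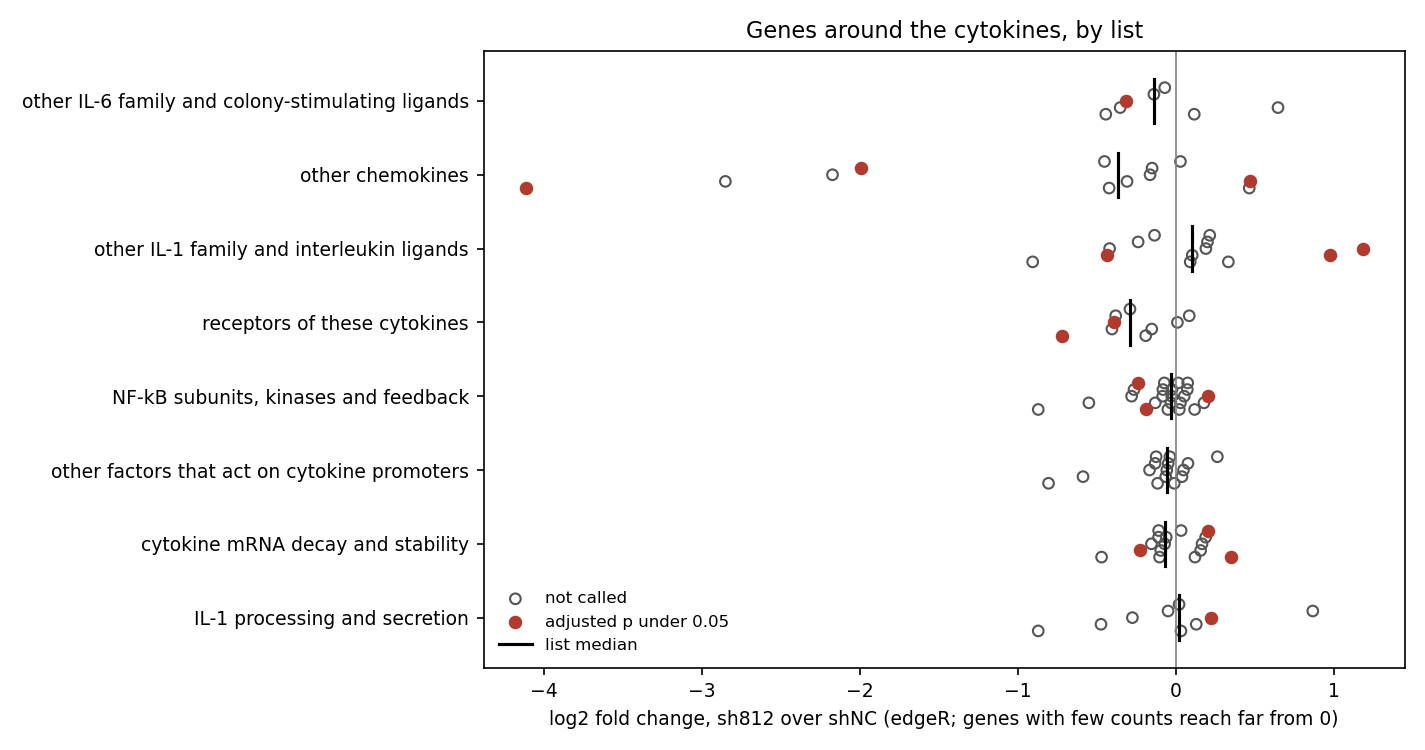
Log2 fold change of sh812 over shNC (x axis) of each tested gene in 8 lists around the cytokines, red where the adjusted p was under 0.05 and open otherwise, with a black line at the list median. List medians lie between -0.37 and 0.10, and the points farthest to the left are chemokine genes with at most 40 counts in a library.

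The genes whose pattern over the 4 libraries was most like that of IL6 were sought among 10838 other genes with a mean of at least 5 CPM, by the Euclidean distance between centred log2 CPM profiles. Near it were NLGN4X, which encodes a neuroligin (distance 0.128), SPOCK1, which encodes the proteoglycan testican-1 (0.170), DENND11 (0.260) and TCN1, which encodes a vitamin B12 carrier (0.278). SPOCK1 went from 38.8 and 35.7 CPM in shNC to 15.3 and 14.5 CPM in sh812. TCN1 went from 13.3 and 13.2 to 6.21 and 5.90 CPM, and DENND11 from 72.0 and 64.7 to 32.0 and 29.5 CPM. These genes were chosen for likeness to a gene that fell, so their falls are a description.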

How the data were processed

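Poly(A) RNA of 4 PC3 libraries was sequenced as paired reads from dUTP-marked cDNA, per the labels' protocols. The authors deposited raw counts per gene, whole numbers with a different total in each library. The submitters' processing notes name fastp, STAR 2.7.1a, featureCounts, DESeq2 and hg38. The annotation, the strand setting and the unit of counting (reads or pairs) are not given in the sources used here. Of counts from 1 to 20, 69.5% to 69.9% were even, against 51.0% to 52.8% of counts of 1000 or more, so a count was not taken as 1 molecule.

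Counts were tested here with edgeR 4.0.16 (R 4.3.3; filterByExpr, TMM, glmQLFit, glmQLFTest, prior count 0.125), with Benjamini-Hochberg adjustment over 16802 genes and a threshold of 0.05. The SE was taken from the F statistic. CPM used TMM-scaled library sizes. Alternatives were other scalings and filters, DESeq2 1.42.0, limma-voom 3.58.1, a replicate block, length and GC trends removed by lowess (span 0.3), a prior count of 2 and each library left out. The main edgeR model alone was tested on 1 set of simulated counts. It recovered 83% of the genes changed by 1 on the log2 scale and 53% of those changed by 0.5. Of its 137 calls, 1 was false. The changed genes were drawn only from genes above a minimum mean count, so the recovery does not cover genes such as CCL2. They went up and down in equal numbers and were far fewer than the genes called in the data. Each simulated gene was given the spread typical of its level, without differences between genes of like level. The rates hold for that setting and may differ in the data.

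The genes, lists and tests were chosen with earlier results of these data known. Named were METTL3, the 10 cytokine genes, up to 4 called genes of each list with the smallest p, the 5 genes most like IL6, and cell type markers; some of these are not reported here. Positions, transcript lengths and 3′ ends come from GENCODE 29 (GRCh38), promoters from RefSeq. No duplicate library was found: the chi-square per gene between replicates was 8.43 in shNC and 4.51 in sh812. Sampling noise gives about 1 if each count is 1 molecule, and more if both ends of a pair are counted.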

Additional observations from a re-analysis of the deposited data

How the results depend on the processing

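All alternatives were planned. None of the 10 cytokine genes changed direction in any of them. With library size alone, 561 genes were called higher, against 912, so that 29.7% of calls were higher against 50.1%, 1 of the 9 cytokine genes was called higher, against 2, and 3 genes of the 8 lists were called higher and 14 lower, against 7 and 9. With the length trend removed, 1 cytokine gene was called higher. With DESeq2 it was 1 as well, and 577 genes were called lower in all. METTL3 ranged from -2.47 to -2.42 on the log2 scale, past the threshold each time.

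Leaving out 1 library leaves a group of 1, which is assumed to vary like the other group. Over the 4 such fits, called genes numbered 587 (without sh812 replicate 1) to 3252 (without shNC replicate 2), with 261 to 1703 higher and 326 to 1549 lower. Of the cytokine genes, 2 to 7 were called, 1 to 2 higher and 1 to 5 lower, the fewest being CXCL5 and LIF alone without either sh812 library. In the 8 lists, 4 to 27 genes were called, 1 to 12 higher and 3 to 15 lower. METTL3 ran from -2.52 to -2.33. These fits had fewer libraries; the cause was not tested otherwise.

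Replicate numbers are shared by the groups without a stated link. Across genes, deviations from the group means correlated at 0.0367 between libraries of one number. This single value over all genes cannot decide whether libraries of one number were made together. With the replicate block, 2001 genes were called, against 1822, with 6 of the 9 cytokine genes and the same directions.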
